A study of Mus musculus with 2 samples.

Results

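NF-κB subunits and their feedback inhibitors were examined in Tregs sorted from the spleen and lung of bleomycin (BLM)-injured mice. The group holds 10 genes, 5 that encode subunits (Nfkb1, Nfkb2, Rel, Rela and Relb) and 5 that encode feedback inhibitors (Nfkbia, Nfkbiz, Nfkbid, Bcl3 and Tnfaip3), among 24346 gene symbols in each library. They were chosen by symbol, all 10 were measured above 0 in both libraries, and all 10 were at 10 FPKM or more in both. FPKM scale the fragments of a gene to its exon length and to the mapped fragments of the library, so that levels of different genes are compared per length.

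Both groups were GFP+CD4+ cells of Foxp3-DTR-GFP (FDG) mice, in which GFP is expressed from the endogenous Foxp3 locus together with the diphtheria toxin receptor, and no toxin treatment is described for these cells. The mice were 10 to 16 weeks old and received 50 μg of BLM intratracheally, and cells were sorted on day 15. The strain background of the FDG mice was not stated in the sources used here. Cells from 3 mice were pooled for each library, 1 of splenic and 1 of lung Tregs, so the comparison is between tissues of injured mice, and uninjured mice were not analysed here. With 1 library per tissue no value has a replicate error and no p-value is given. Fewer cells of a type and less RNA per cell cannot be told apart in such bulk libraries.

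NF-κB is a family of dimeric transcription factors. At rest, IκBα (Nfkbia) holds dimers such as RelA-p50 in the cytoplasm, and signals from the T cell receptor, TNF family receptors or IL-1 family receptors lead to its degradation and to entry of the dimers into the nucleus. NF-κB then induces Nfkbia and Tnfaip3 themselves, which ends the signal, and c-Rel (Rel) is known to be required for the development of Tregs in the thymus.

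The kappaB sites near the start sites of these genes are shown because NF-κB is known to act on several of them through such sites. RefSeq promoter windows of GRCm38.p6, from 250 bases before to 50 bases after a start site, were at hand for 7 of the 10 genes, in 12 windows. The degenerate kappaB consensus was present in 8 of the 12 windows, against 8.46% of all 32851 windows. By gene it was present in 6 of the 7, against 9.55% of 27025 symbols. Windows of Nfkb2 overlap, and a match that they share is counted in each. The looser pattern GGGNNNNNCC, which includes the consensus, was present in all 12 windows, against 50.8% of all windows, and both strands were searched for each. Most of these genes have been studied as NF-κB targets, and a match in a window is a description of its letters. Rela had no match to the consensus, and Nfkb1, Relb and Nfkbiz had no entry. The following stretches run 5′ to 3′ along the strand of the gene, with the 10 bases that match in capitals, for the match in each gene whose first base lay closest to a start site.
Nfkbia, chr12:55492657-55492686, minus strand: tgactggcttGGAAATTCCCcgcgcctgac
Nfkbid, chr7:30422215-30422244, plus strand: gggccgaacaGGAATTCCCCgtgcgcgggg
Tnfaip3, chr10:19015403-19015432, minus strand: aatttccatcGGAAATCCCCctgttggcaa
Bcl3, chr7:19822734-19822763, minus strand: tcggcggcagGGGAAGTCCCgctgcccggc
Rel, chr11:23771041-23771070, minus strand: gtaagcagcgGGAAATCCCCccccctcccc
Nfkb2, chr19:46305695-46305724, plus strand: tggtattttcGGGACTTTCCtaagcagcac
In Nfkbia the matching bases began 29 bases before the start site, in Tnfaip3 12 bases before and in Rel 91 bases before it. In Nfkbid they began 181 bases before the second of 3 start sites, in Nfkb2 10 bases after the second of its start sites (another match began 11 bases before the first), and in Bcl3 2 bases after the start site. The 2 matches in Rel overlap, shifted by 1 base.

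All 5 subunits were expressed in both libraries, and with FPKM as deposited none differed by 1.5-fold between them. After rescaling to TPM, Relb was 1.75-fold and Rela 1.62-fold lower in lung. Rela, which encodes the activating subunit p65, was at 86.2 FPKM in spleen and at 71.6 in lung, and was the highest subunit in each library. Relb, the partner of p52 in the non-canonical pathway, was at 53.4 FPKM in spleen and at 41.2 in lung. Nfkb1, which encodes the precursor p105 of p50, was at 31.5 FPKM in spleen and at 28.4 in lung. These 3 subunits were lower in lung, by 1.20-fold for Rela, 1.30-fold for Relb and 1.11-fold for Nfkb1.

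The remaining subunits, Nfkb2 and Rel, were higher in lung. Nfkb2, which encodes the precursor p100 of p52, was at 44.0 FPKM in spleen and at 51.5 in lung, a ratio of 1.17. Rel was at 15.5 FPKM in spleen and at 20.6 in lung, a ratio of 1.33, and was the lowest of the 10 genes in both libraries. Both were lower in lung after rescaling to TPM, where the log2 ratio was -0.20 for Nfkb2 and -0.02 for Rel. Summed over the 5 subunits, FPKM were 230.6 in spleen and 213 in lung.

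The feedback inhibitors had a higher summed FPKM than the subunits in both libraries, and 4 of 5 were higher in lung with FPKM as deposited. Nfkbia was at 581 FPKM in spleen and at 871 in lung, a log2 ratio of 0.58, and ranked 156 in spleen and 146 in lung among all symbols. Tnfaip3, which encodes the ubiquitin-editing enzyme A20, was at 204 FPKM in spleen and at 264 in lung, a ratio of 1.29 that turned to a log2 ratio of -0.06 after rescaling to TPM. These were the 2 highest of the 10 genes in both libraries.

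The nuclear IκB proteins bind NF-κB on DNA and modulate its targets. They differed from one another. Nfkbid, which encodes IκBNS, a nuclear IκB known to promote Foxp3 expression in developing Tregs, was at 79.5 FPKM in spleen and at 172 in lung. Its ratio of 2.16 was the highest of the 10 genes. Nfkbiz, which encodes IκBζ, was at 84.3 FPKM in spleen and at 143 in lung, a ratio of 1.69. Bcl3, a coactivator or corepressor with p50 and p52 homodimers, was at 63.4 FPKM in spleen and at 44.2 in lung, 1.43-fold lower in lung, and was the only feedback inhibitor of the 5 that was lower there.

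**Figure D1:**
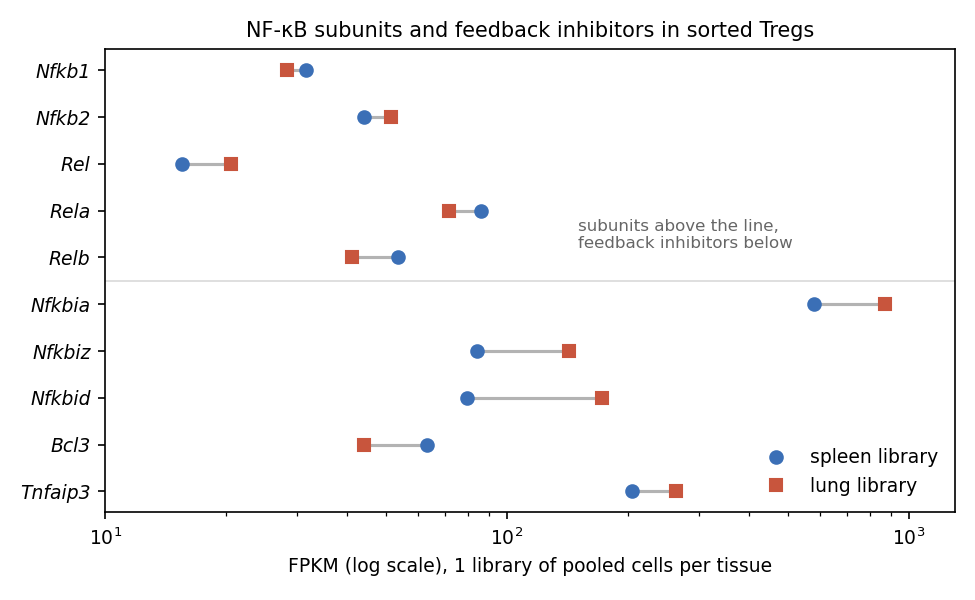
FPKM of each gene (log axis) in the splenic library (blue circles) and the lung library (red squares), 1 library of pooled cells per tissue, with a line joining the 2 values of a gene. The subunits stay close together, Nfkbid moves from 79.5 to 172 FPKM, and Bcl3 is the only one of the feedback inhibitors with the lung value on the left.

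The order of the genes shifted most for Nfkbid, from position 5 to 3, for Nfkb2, from position 8 to 6, and for Rela, from position 3 to 5. In spleen Rela, Nfkbiz and Nfkbid stood at positions 3, 4 and 5 with 86.2, 84.3 and 79.5 FPKM, and the 95% counting intervals of neighbours overlapped. In lung Nfkbid and Nfkbiz stood at positions 3 and 4 with 172 and 143 FPKM, above Rela at 71.6 FPKM, and no intervals overlapped among these 3 genes. Bcl3 and Relb, at 44.2 and 41.2 FPKM in lung, could not be ordered by counting error there. The intervals are exact Poisson intervals on estimated reads. They hold counting error alone, since PCR copies of a molecule were not told apart.

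The reads behind each gene, estimated from its FPKM and transcript length, ran from 1079 for Bcl3 to 8829 for Tnfaip3 in spleen and from 854 for Bcl3 to 14037 for Nfkbia in lung. For Nfkbid, with about 1488 and 3652 reads, the 95% exact binomial interval of the ratio was 2.03 to 2.30, and for Bcl3, with 1079 and 854 reads, the ratio of lung to spleen was 0.697 with an interval of 0.637 to 0.763. With FPKM as deposited, the interval did not include 1 for any of the 10 genes. It applies to that scaling alone and says nothing about the variation between mice.

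Set against all genes, the differences were of moderate size. Of 7279 genes at 10 FPKM or more in at least 1 library, 11.6% were over 2-fold higher in lung, 9.15% were over 2-fold lower and 52.4% were higher by any amount. Among the 10 genes 1 was over 2-fold higher, Nfkbid, 0 were over 2-fold lower and 6 were higher by any amount. With a minimum of 1 FPKM, 17.8% of 12094 genes were over 2-fold higher and 15.5% were over 2-fold lower. Between 1.5-fold lower and 1.5-fold higher lay 8 of the 10 genes, against 57.5% of genes at 10 FPKM or more, with Nfkbia just inside at 1.4997-fold. The count was 7 with equal sums of T cell markers, where Nfkbia fell outside, and 6 in TPM, against 57.1% and 49.1% of these genes. Nfkbid had a higher ratio than 90.0% of these genes, Nfkbiz than 83.3%, Nfkbia than 77.4%, and Bcl3 than 22.3%. Over the 10 genes the median log2 ratio was 0.30, beside -0.15 over the subunits and 0.58 over the feedback inhibitors, and 0.05 over all genes at 10 FPKM or more.

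**Figure D2:**
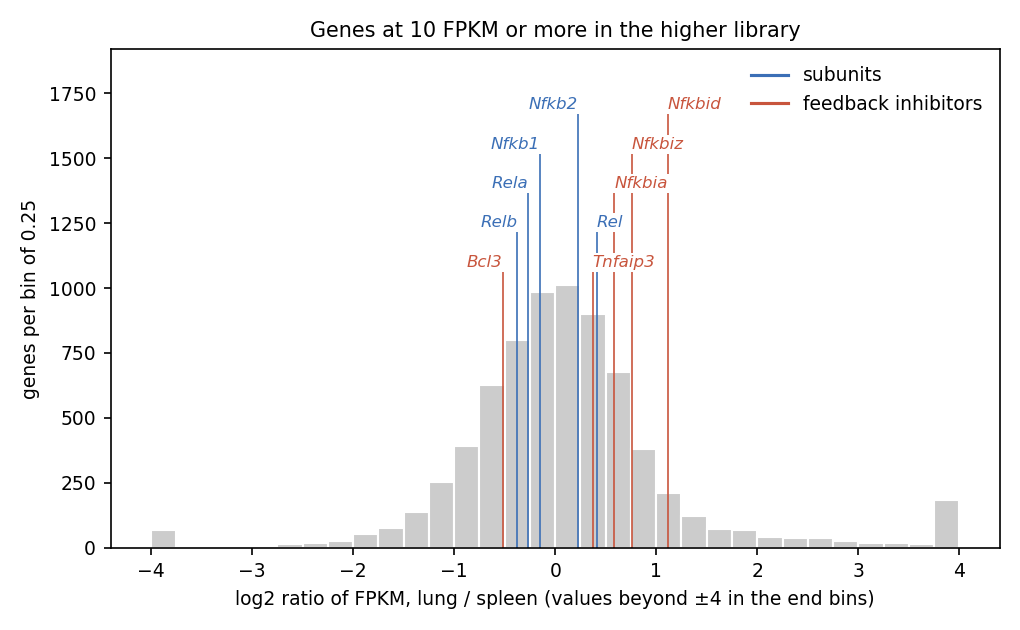
Histogram of the log2 ratio of lung to splenic FPKM for the 7279 genes at 10 FPKM or more in at least 1 library (grey, genes per bin of 0.25), with the subunits as blue lines and the feedback inhibitors as red lines. The 5 subunits fall in the central part of the distribution, and Nfkbid, at 1.11, is farthest to the right.

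Ratios between genes of the same library do not depend on how the libraries were scaled. The summed FPKM of the 5 feedback inhibitors was 4.39 times that of the 5 subunits in spleen and 7.004 times in lung, and without Nfkbia, the most abundant gene, 1.87 times in spleen and 2.92 times in lung, a 1.56-fold difference. Among the 25 pairs of 1 inhibitor and 1 subunit, the inhibitor was higher relative to the subunit in lung in 19. The exceptions were the 5 pairs with Bcl3 and that of Tnfaip3 with Rel. All 25 pairs reuse the values of the same 5 inhibitors and 5 subunits, so they are not independent. The count restates the order of the ratios of these genes, and the share among pairs of other genes was not calculated. Nfkbia was 6.74 times as high as Rela in spleen and 12.2 times in lung, and Nfkbiz 0.979 times as high in spleen and 1.99 times in lung.

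Within each group, the makeup also differed between the libraries. Nfkbid was 1.25 times as high as Bcl3 in spleen and 3.89 times in lung, a 3.10-fold difference. Bcl3 took 6.26% of the FPKM of the feedback inhibitors in spleen and 2.96% in lung, and Nfkbid took 7.85% and 11.5%. Nfkbia took 57.4% and 58.3%. Among the subunits, Rel took 6.73% in spleen and 9.66% in lung, and Rela took 37.4% and 33.6%. Nfkb2 was 0.823 times as high as its partner Relb in spleen and 1.25 times in lung.

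**Figure D3:**
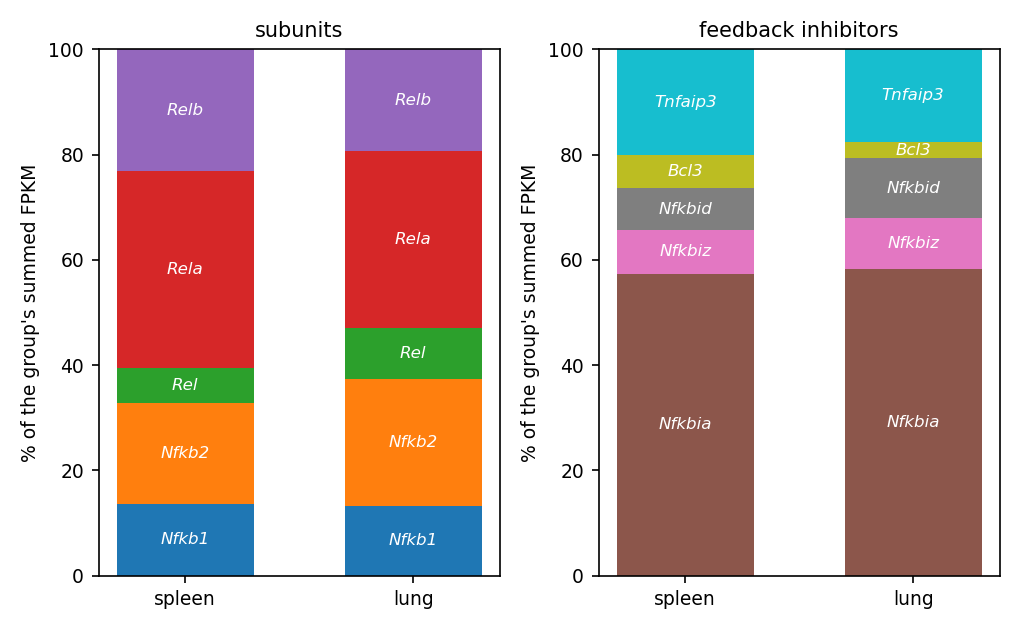
Share of each gene, in % of the summed FPKM of its group, in the splenic and lung libraries, for the subunits (left) and the feedback inhibitors (right). Nfkbia holds 57.4% in spleen and 58.3% in lung, whereas Bcl3 narrows from 6.26% to 2.96% and Rel widens from 6.73% to 9.66%.

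The scaling of the libraries set the direction of 3 genes. Rescaling to TPM lowered the log2 ratio of genes at 1 FPKM or more in both libraries alike, by 0.43, and with it 3 of the 10 genes were higher in lung, beside 29.2% of all genes at 10 FPKM or more. The number was 6 with FPKM as deposited, beside the 52.4% given above, and with each of the other scalings tried. The median log2 ratio in TPM was -0.13 over the 10 genes and -0.39 over all genes at 10 FPKM or more. Rescaling by 1 factor per library cannot change the place of a gene relative to other genes. Nfkbid, Nfkbiz and Nfkbia were higher in lung with every scaling, at log2 ratios of 0.68, 0.33 and 0.15 in TPM. Bcl3, Relb, Rela and Nfkb1 were lower with every scaling. Nfkbid passed 2-fold with FPKM as deposited, with a median ratio of 1 and with equal sums of T cell markers, but not in TPM or with equal upper quartiles.

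**Figure D4:**
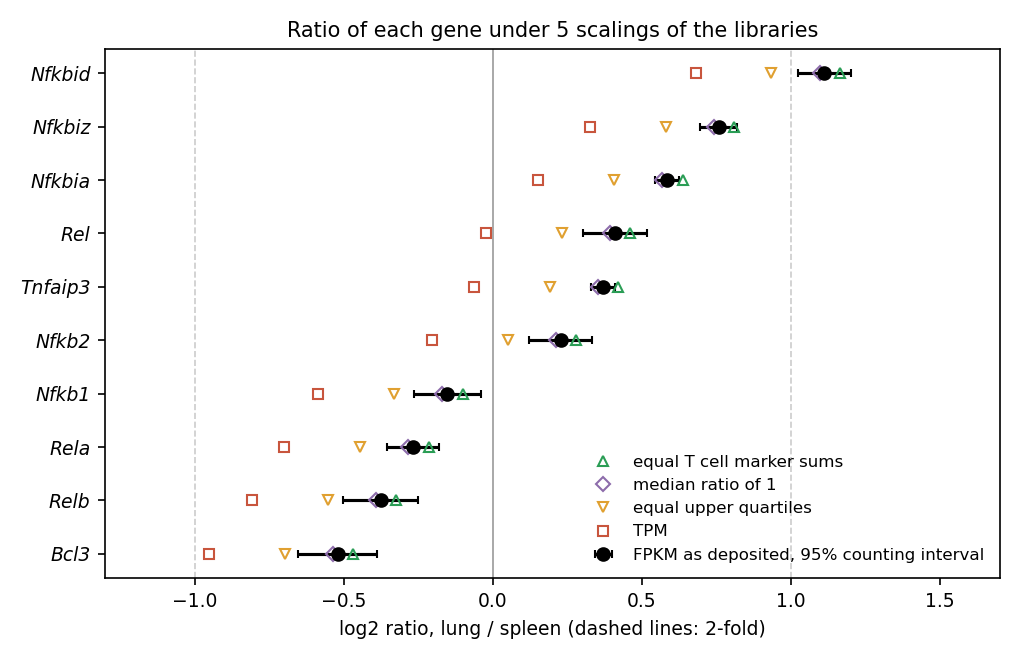
Log2 ratio of lung to spleen for each gene with FPKM as deposited (black circles, with 95% counting intervals) and after 4 rescalings of the libraries (open symbols), with dashed lines at 2-fold. TPM (red squares) moves all genes to the left by 0.43 and puts Rel, Tnfaip3 and Nfkb2 below 0, and Nfkbid stays highest.

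The identity of the sorted cells was read from marker genes. Of 6 Treg markers, 3 were higher in lung and 3 were lower. Foxp3 was at 18.7 FPKM in spleen and at 41.8 in lung, and Ctla4 at 221 and 601. Izumo1r was lower in lung, at 512 and 318 FPKM, as was Il2ra, and Ikzf2 was at 42.0 and 41.6. The 7 T cell markers listed summed to 4067 and 3922 FPKM. Actb was at 1325 and 1242 FPKM. All 8 macrophage markers were higher in lung with FPKM as deposited. Their sum was 490.4 FPKM in spleen and 25423 in lung, and came mostly from Lyz2. Itgam was at 1.45 and 5.85 FPKM. Csf1r and Mrc1 differed little, at 43.8 and 50.1 FPKM and at 7.64 and 9.41 FPKM. Of 7 neutrophil markers listed 6 were higher in lung (431 and 1214 FPKM in sum), with Elane at 0 in lung, and of 7 dendritic cell markers 4 were higher, with Clec9a at 0 in lung. The dendritic cell sums of 319.9 and 401 FPKM came mostly from Ccr7, which T cells also express, and were 9.43 and 39.9 without it. All 8 B cell markers were lower in lung (262 and 138 FPKM). The sums were 10.97 and 3122 FPKM for 5 epithelial markers, mostly Scgb1a1 in lung, though Epcam was lower there, at 8.75 and 1.79 FPKM. They were 0.290 and 47.0 for 5 fibroblast markers and 54.99 and 38.6 for 5 endothelial markers (0.197 and 6.92 without Pecam1). For 4 markers of CD8 T and NK cells they were 31.2 and 92.4 (11.4 and 17.6 without Cd8b1). Among these, Ncr1 was at 2.69 FPKM in spleen and at 0 in lung. Macrophages, neutrophils and B cells also express NF-κB genes and their feedback inhibitors, and the part of such cells in the values above was not tested.

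Of 76 other genes of the pathway, in 4 lists, 20 were higher in lung by over 2-fold and 8 were lower by as much, beside the 17.8% and 15.5% of all genes at 1 FPKM or more. Of 12 kinases and their regulatory subunits, 1 was over 2-fold higher and 2 were over 2-fold lower, with a median log2 ratio of -0.33. Map3k14, which encodes the kinase NIK of the non-canonical pathway, was at 9.29 FPKM in spleen and at 2.79 in lung, 3.34-fold lower in lung. Map3k7, which encodes TAK1, was at 15.8 and 6.15 FPKM, 2.56-fold lower, whereas Tab3, a TAK1-binding protein, was at 2.44 and 5.96 FPKM, 2.44-fold higher. Prkcq, the protein kinase C of the T cell receptor pathway, was at 158 FPKM in spleen and at 81.6 in lung.

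Map3k8, which encodes TPL2, a kinase held by p105, was at 20.8 FPKM in spleen and at 33.3 in lung, and Tab2 was at 13.2 and 17.95 FPKM. The 3 core genes of the IκB kinase complex were named after their values had been seen. Chuk was at 35.8 FPKM in spleen and at 24.8 in lung, Ikbkb at 77.0 and 59.2, and Ikbkg at 14.3 and 11.7, each lower in lung by less than 1.5-fold.

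Of 18 adaptors and ubiquitin ligases, 0 were higher in lung by over 2-fold and 2 were over 2-fold lower, with a median log2 ratio of -0.14. Traf5, an adaptor of TNF receptor family members, was at 41.1 FPKM in spleen and at 10.4 in lung, 3.96-fold lower. Traf6, the ligase downstream of IL-1 family and Toll-like receptors, was at 17.0 and 5.76 FPKM, 2.96-fold lower. Rnf31, the catalytic subunit of the linear ubiquitin ligase, was at 24.1 and 13.5 FPKM, and its partner Sharpin was at 51.2 and 74.2 FPKM. Traf1, at 96.2 and 115 FPKM, and Irak4, at 17.1 and 20.3 FPKM, were the next highest in ratio after Sharpin.

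Of 18 other inhibitors, 3 were over 2-fold higher and 3 over 2-fold lower, with a median log2 ratio of 0.09. N4bp1, an endoribonuclease that restrains NF-κB signalling, was at 5.62 FPKM in spleen and at 16.5 in lung, 2.93-fold higher. Nlrx1 was at 3.89 and 9.96 FPKM, and Commd1, which promotes turnover of RelA, was at 45.7 and 111 FPKM, 2.43-fold higher. Nfkbil1 was at 5.96 and 1.28 FPKM and Otud7b, a deubiquitinase, at 2.60 and 0.954 FPKM. Nlrc5, better known as the transactivator of MHC class I genes, was at 39.7 and 15.5 FPKM. The remaining typical IκB genes, named after their values had been seen, differed by less than 1.5-fold, with Nfkbib at 42.7 FPKM in spleen and at 55.7 in lung and Nfkbie at 36.8 and 40.0 FPKM.

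Genes known as NF-κB targets were the list with the most genes higher in lung. Of 28 genes, 16 were over 2-fold higher and 1 was over 2-fold lower, with a median log2 ratio of 1.09, which was 0.65 in TPM, where 12 were over 2-fold higher and 2 over 2-fold lower, beside 13.3% and 27.5% of all genes at 1 TPM or more. The 3 highest ratios belonged to genes of cytokines that myeloid cells produce in quantity. Il1b was at 23.2 FPKM in spleen and at 485 in lung, 20.9-fold higher, and Cxcl2 was at 4.41 and 83.1 FPKM, 18.8-fold higher. Il6 was listed at 0 in spleen and at 13.9 FPKM in lung, at least 33.1-fold higher when 3 reads are allowed for the splenic count of 0. The sums of the macrophage, neutrophil, epithelial and fibroblast markers were also higher in lung, and the part of those cells was not tested.

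Further targets were named after their values had been seen. Ccl22, a chemokine gene, was at 0.542 FPKM in spleen and at 10.2 in lung, 18.8-fold higher. Ier3, an early response gene, was at 2.41 and 45.1 FPKM, 18.7-fold higher. Csf2, which encodes GM-CSF, was at 0.234 and 3.50 FPKM, with about 1 read in spleen. Tnfrsf4, which encodes OX40, was at 486 FPKM in spleen and at 1004 in lung, 2.06-fold higher, and Icam1 was at 63.8 and 139 FPKM, 2.18-fold higher. Gadd45b, an anti-apoptotic target, was at 39.9 and 248 FPKM, 6.22-fold higher. Bcl2a1b was at 111 and 320 FPKM, but Bcl2a1a, Bcl2a1b and Bcl2a1d are near-identical copies and the split of reads among them is uncertain. Among the lowest ratios were those of Il2ra, also a Treg marker, at 89.4 and 59.1 FPKM, and Irf1, at 263.9 and 181 FPKM. Vcam1, at 72.9 FPKM in spleen, was listed at 0 in lung, at least 932-fold lower there when 3 reads are allowed. The part of cells other than Tregs in the values of these targets, in either library, was not tested.

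**Figure D5:**
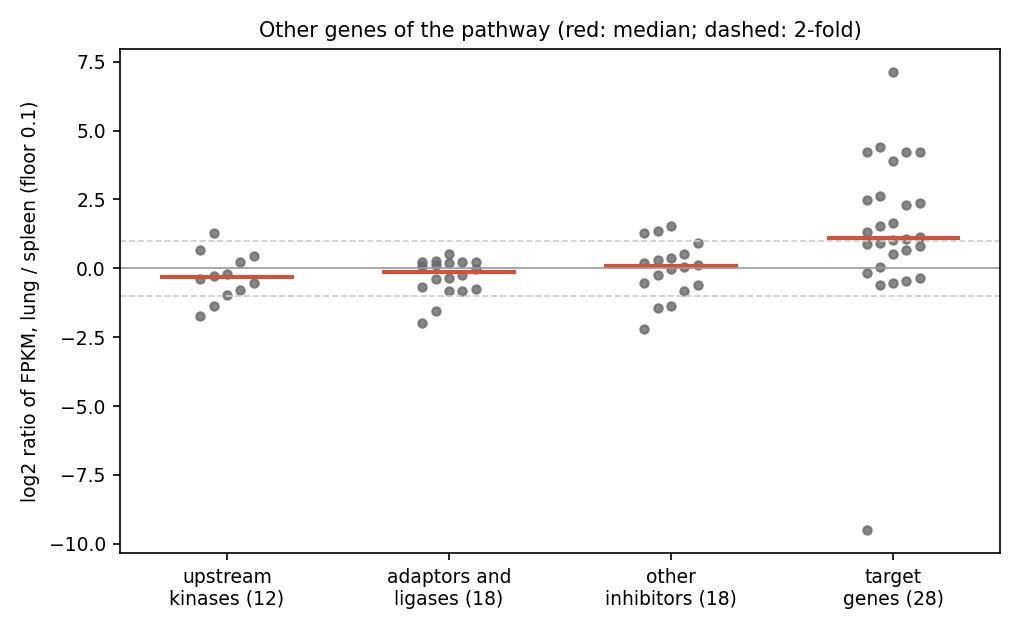
Log2 ratio of lung to splenic FPKM, with values under 0.1 set to 0.1, for each gene (points) of 4 lists of the pathway, with medians as red lines and dashed lines at 2-fold. The medians of the kinases, adaptors and other inhibitors lie between -0.33 and 0.09 and that of the target genes at 1.09, and the lowest and highest points of the target genes are Vcam1 and Il6, each at 0 in 1 library.

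The deposited values do not separate transcripts of overlapping genes, and strand was not stated to be used in counting. In GENCODE M21, exons of Nfkb2 (chromosome 19, 46304320 to 46312385, plus strand) share 531 bases with the non-coding gene AC114539.1 on the opposite strand, which had no values here. They also share 299 bases with Psd on the opposite strand, which was at 2.87 FPKM in spleen and at 1.52 in lung. Exons of Bcl3 (chromosome 7, 19808462 to 19822770, minus strand) share 161 bases with an antisense gene, Gm16175, that had no values here. Exons of Nfkbid (chromosome 7, 30421732 to 30428746, plus strand) and of Nfkbia (chromosome 12, 55489410 to 55492647, minus strand) share none with another gene.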

How the data were processed

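Full-length cDNA of pooled GFP+CD4+ cells was prepared with SMART-Seq HT, which adds no molecular identifiers, and sequenced in single-end mode to 75 bases. The authors mapped reads to mm10 with TopHat2 2.1.1, Bowtie2 2.2.8 and SAMtools 0.1.18 and calculated the deposited FPKM with Cuffdiff 2.2.1. The annotation and the scaling between libraries were not given in the sources used here. The FPKM summed to 599633 in spleen and 808853 in lung.

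FPKM under 0.1 were set to 0.1 and lung was divided by spleen. Genes at 1 FPKM or more in at least 1 library were counted past 2-fold. No test was run. Reads were estimated from GENCODE M21 lengths of transcripts tied to RefSeq, with Cuffdiff's default fragment length (mean 200, SD 80). The value of 1 read was the product of FPKM and effective length that the largest number of genes shared within 1%, which was 210 genes in spleen and 127 in lung. Only genes with 1 transcript length, of at least 1500 nt, were used for it. Of values of 1 to 10 reads, 74.6% in spleen and 76.9% in lung lay within 0.1 of a whole number. Estimated reads summed to 9647269 in spleen and 12631701 in lung. Zeros were allowed 3 reads.

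The genes and lists were chosen with earlier results of these data known. Named were all 10 genes, the 3 highest and 3 lowest ratios of each pathway list, kinases and other inhibitors past 2-fold, Foxp3 and Actb. Settings tried were floors, pseudocounts, scalings, folds and minimum levels. Trac and Ly6g had no values here. The value of 1 read and the 2-fold calls were tried on simulated reads drawn from the same length model with counting error alone. The rescalings, the intervals and the motif search were not tried on simulated data. The work used pandas 2.3.3, numpy 2.4.6, matplotlib 3.10.9 and scipy 1.17.1 under Python 3.11.15.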

Additional observations from a re-analysis of the deposited data

How the results depend on the processing

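Floors of 0.01 and 1 FPKM could not alter the ratios of the 10 genes, since all 10 were at 10 FPKM or more in both libraries. Pseudocounts of 0.1 and 1 FPKM, added to both libraries alike, could not change the direction of any gene. In TPM, 0 of the 10 genes were over 2-fold higher in lung. Their median log2 ratio was -0.13, beside -0.39 over all genes at 10 FPKM or more. Of the 76 pathway genes, 13 were over 2-fold higher in TPM and 17 over 2-fold lower. The shares of all genes at 1 TPM or more were 13.3% and 27.5%. With equal upper quartiles, 0 of the 10 genes were over 2-fold higher and their median log2 ratio was 0.12 beside -0.13 over all these genes. At a fold of 1.5, 2 of the 10 genes were higher and 0 were lower, and 26 pathway genes were higher and 17 were lower. At a fold of 4, 0 of the 10 genes and 10 pathway genes were higher, and 2 pathway genes were lower. The share of all genes past a fold of 1.5 or 4 in each direction was not calculated, nor was the share past 2-fold with equal upper quartiles. Those counts therefore cannot be set against all genes. At a minimum of 10 FPKM, 16 pathway genes were over 2-fold higher and 5 were over 2-fold lower, beside 11.6% and 9.15% of all genes. Fewer than 76 pathway genes reach that minimum, and because the number that do is not given, these counts are not shares of 76. Without Nfkbia, the ratio of inhibitors to subunits was 1.87 in spleen and 2.92 in lung. Without Rel it was 4.71 and 7.75, a 1.65-fold difference. No paired analysis was possible because each tissue has 1 library. For the same reason no library could be left out, and the variation between mice limits every comparison here.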
